A study of Mus musculus with 8 samples.

Results

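The immunoglobulin heavy chain locus was followed probe by probe in 4 lines derived from the mouse B lymphoma A20. Members were the probes other than array controls that the array files place on chromosome 12 of mm9 between 114509504 and 117238485. This gave 149 of the 55681 probes on the array, and each probe was kept as a feature of its own. The 13 probes up to 114659689 made up the constant region and the 136 beyond it the variable region. A probe was tested if both arrays of some line read it well above background, which left 57 members, 11 constant and 46 variable.

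The lines were stable transfectants with IgE, clones 18 and 41, a stable transfectant with membrane IgM, and untransfected A20 cells. Each line had 2 arrays, 8 in all. The culture medium was RPMI with 10% serum and 50 µM beta-mercaptoethanol for every line, and each array took 1 µg of RNA. The series describes the IgE as membrane IgE. Its design sets the IgE clones against both other lines, here called the control lines. Each IgE line was 1 clone, and the labels give neither the promoter nor the variable segment of the transfected chains, nor whether the IgM line was 1 clone. Whether the 2 arrays of a line stand for separate cultures is not stated, so the p-values reflect the spread between samples that may be technical repeats.

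The heavy chain of an antibody is assembled from a variable (V), a diversity and a joining segment, and the joined exon is spliced to the exons of a constant gene. The constant gene sets the class: mu for IgM, delta for IgD, gamma for IgG and epsilon for IgE. A B cell usually makes 1 productive heavy chain, and class switching moves its variable exon to another constant gene. A20 cells come from a BALB/c mouse and make IgG2a, whereas the probes were designed on the C57BL/6 reference, which differs from BALB/c in its heavy chain alleles.

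All members printed here read along the minus strand of the locus and are given 5′ to 3′ as the array files hold them, at mm9 positions. Each is 60 bases long and has at least 1 reading frame without a stop codon. No exon annotation of mm9 was used here. The first set shows the probes of the constant genes that bear on the transfected chains or that differed between lines.
Ighe, epsilon constant gene (chr12:114509504-114509563): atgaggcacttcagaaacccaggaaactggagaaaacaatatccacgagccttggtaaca
Ighm, mu constant gene (chr12:114659630-114659689): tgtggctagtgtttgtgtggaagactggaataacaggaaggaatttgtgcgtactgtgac
Ighg1, first probe (chr12:114567263-114567322): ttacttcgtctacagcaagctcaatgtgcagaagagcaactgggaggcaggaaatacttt
Ighg1, second probe (chr12:114568594-114568653): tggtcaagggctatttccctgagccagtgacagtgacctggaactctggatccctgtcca
ENSMUST00000103423 (chr12:114597942-114598001): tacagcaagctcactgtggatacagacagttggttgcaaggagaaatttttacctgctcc
Delta chain cDNA AK134885 (chr12:114654277-114654336): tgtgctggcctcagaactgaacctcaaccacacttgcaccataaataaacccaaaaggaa
The first Ighg1 probe and ENSMUST00000103423 share a run of 13 bases, and no pair of the 11 tested constant probes shares a longer one. ENSMUST00000103423 carries the array description AI324046 and lies between the Ighg1 and delta probes, where a RefSeq gene table of GRCm38.p6 has Ighg3. The array files name the AK134885 probe Ighv14-2, but their description calls it a membrane-bound delta chain constant region, and its position is in the constant region.

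The second set shows 5 probes of the Ighv2 family, which were higher in all 3 transfectants than in untransfected cells. Capitals mark the longest run each shares with another tested Ighv2 probe.
Ighv2-2, second probe (chr12:114826538-114826597): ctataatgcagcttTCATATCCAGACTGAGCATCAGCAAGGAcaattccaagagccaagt
Ighv2-3 (chr12:114849459-114849518): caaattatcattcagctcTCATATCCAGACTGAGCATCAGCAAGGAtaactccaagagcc
Ighv2-2, first probe (chr12:114826478-114826537): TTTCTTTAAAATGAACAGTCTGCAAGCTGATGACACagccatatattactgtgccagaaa
Ighv2-5 (chr12:114923693-114923752): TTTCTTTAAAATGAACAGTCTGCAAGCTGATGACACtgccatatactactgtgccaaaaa
Ighv2-9 (chr12:115117307-115117366): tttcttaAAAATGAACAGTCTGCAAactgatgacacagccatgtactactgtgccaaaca
The second Ighv2-2 probe and Ighv2-3 share 28 bases. The first Ighv2-2 probe and Ighv2-5 share 36, and both share 18 with Ighv2-9. One more probe with this pattern, named Igh-VJ558 after a large group of V segments, covers the start of a leader peptide, and from its ATG it reads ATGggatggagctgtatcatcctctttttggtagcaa.

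The third set shows probes that were high in IgM cells alone. Capitals mark the longest run each shares with a tested probe of the Ighv1 family.
Ighv1-7 (chr12:115776734-115776793): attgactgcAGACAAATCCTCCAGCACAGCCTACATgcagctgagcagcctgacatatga
Ighv1-52 (chr12:116383750-116383809): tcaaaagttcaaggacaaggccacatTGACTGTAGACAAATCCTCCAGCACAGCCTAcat
Ighv1-53 (chr12:116396734-116396793): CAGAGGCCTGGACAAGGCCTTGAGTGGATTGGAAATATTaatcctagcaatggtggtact
Ighv1-77 (chr12:117100209-117100268): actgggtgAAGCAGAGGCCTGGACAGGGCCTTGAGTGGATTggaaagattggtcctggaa
Ighv1-64 (chr12:116745936-116745995): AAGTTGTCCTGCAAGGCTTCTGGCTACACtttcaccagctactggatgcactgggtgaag
Ighv14-3 (chr12:115298056-115298115): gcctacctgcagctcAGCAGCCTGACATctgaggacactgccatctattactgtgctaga
Of the 23 tested Ighv1 probes, 22 share a run of at least 20 bases with another member of the family, as do 14 of the 16 not tested. Probes of one family may therefore take up the same RNA, which was not tested, so their values were not taken as independent of each other. Which probes match the transfected sequences was not tested, since the files do not give those sequences. Short words known from V genes were searched for on both strands. The recombination heptamer CACAGTG was found in 6 of 136 variable probes (4.41%) and in 1.61% of all probes. The nonamer ACAAAAACC was in 1 variable probe (0.735%), against 0.153% of all probes. TATTACTGT, which encodes the end of framework 3 in many V segments, was in 9 variable probes (6.62%), among them the first Ighv2-2 probe, Ighv14-3 and AY171990, against 0.144% of all probes.

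The values below are log2 processed signals over the array's 75th percentile, called log2 signals. That percentile was 414 to 586 intensity units, and each array read 49.3% to 58.5% of probes well above background. The log2 difference between replicates had an SD of 0.65 in untransfected cells and of 0.33 to 0.37 in the other lines (24838 probes). The B cell markers Blk, Cd22, Cd37, Cd79a, Cd79b, Ms4a1 and Pax5 were well above background on all 8 arrays. Their log2 changes between IgE and control lines ran from -0.84 (Cd79a) to 0.65 (Pax5), below 0 at Blk, Cd22, Cd79a and Ms4a1, and none of them was called in that comparison. Probes of the T cell marker Cd8a, the mast cell marker Fcer1a and the myeloid marker Lyz2 were not well above background on any array. Nor were those of the basophil marker Mcpt8 and the plasma cell marker Tnfrsf17. On all 8 arrays, 4 of the 8 T cell markers were well above background, as were 4 of the 8 mast cell, basophil and myeloid markers. The same held for 2 of the 4 plasma cell markers. Cd3g, a T cell receptor subunit, was well above background on the IgM arrays alone, at log2 signals of -1.23 and -0.46, and the log2 of the summed signal of 8 T cell markers was 4.26 to 4.55 in IgE lines and 3.66 to 4.33 in control lines. Among 8 markers of mast cells, basophils and myeloid cells (log2 of the summed signal 5.46 to 6.02 in IgE lines and 5.59 to 5.96 in control lines), Adgre1 was lower in the IgE lines by a log2 change of -4.40 ± 0.37 (SE, limma adjusted p = 0.000572). The part of these genes in the values of the locus was not tested. Lines were compared with limma, with p-values adjusted by Benjamini-Hochberg over all 29140 probes tested, and calls required an adjusted p under 0.05 together with a 2-fold difference. In every comparison, also that of IgE with control lines, SE and p-values rest on the spread between arrays of the same line. They do not measure the spread between clones or lines.

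Detection in the locus differed between the lines chiefly in the variable region. Of the 136 variable probes, 36 were well above background on both arrays of clone 18, 33 in clone 41, 45 in IgM cells and 21 in untransfected cells. Of the 13 constant probes, 10 were so in clone 18, 10 in clone 41, 11 in IgM cells and 10 in untransfected cells. Of the 92 members not tested, 59 were not well above background on any array. The 92 hold all probes matched to the families Ighv3 (5 probes), Ighv4 (1), Ighv6 (2), Ighv7 (4), Ighv11, Ighv12, Ighv15 and Ighv16 (1 each). Fewer cells with a transcript and less transcript per cell cannot be told apart in these bulk samples.

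Over the 4 lines together, 36 of the 57 tested members differed (moderated F test in limma, with line means spanning at least 2-fold), against 10.2% of all probes tested. Of these 36, 2 were constant and 34 variable, and 29 of the 34 were Ighv2 or Ighv1 probes. The pairwise comparisons share lines, so their counts are not independent. Many variable members entered the test only through a transfected line in which they were high, so the counts describe the members that passed and are not a share of the locus. IgM cells exceeded untransfected cells at 33 members and were lower at none, against 1.09% and 0.714% of all probes. Clone 18 was higher than untransfected cells at 9 members and lower at 1, against 3.37% and 4.06% of all probes. Clone 41 was higher than untransfected cells at 9 members and lower at none, against 2.37% and 3.09% of all probes. Clone 18 was lower than IgM cells at 29 members and higher at 1, against 5.34% and 3.45% of all probes. Clone 41 was lower than IgM cells at 28 members and higher at 1, against 4.52% and 2.69% of all probes. The counts against untransfected cells moved in both directions with the processing. Scaled to the array median, 20 members were called for clone 18, 19 of them higher, and 22 for clone 41, all higher. With either clone 18 array left out, 3 were called for each clone, and without the first or second clone 41 array 5 or 3 were called for clone 41.

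The epsilon constant gene, which encodes the class of the transfected IgE, was not higher in the IgE clones by the test. Its probe read 0.67 and 0.54 log2 signal in clone 18, 0.05 and 0.59 in clone 41, 0.26 and 1.19 in IgM cells, and -1.01 and -0.12 in untransfected cells. The untransfected arrays were the lowest, and the IgM arrays overlapped both clones. The difference between IgE and control lines was 0.39 ± 0.29 on the log2 scale (SE, limma adjusted p = 0.399), and the 4 lines together did not differ by the test (adjusted p = 0.21).

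The mu constant gene was bright in every line. Its probe, averaged over 10 spots, read 3.83 and 3.99 log2 signal in clone 18, 4.12 and 4.13 in clone 41, 5.04 and 4.81 in IgM cells, and 4.18 and 4.49 in untransfected cells. Both IgM arrays were above the other 6. Clone 18 was 2.02-fold lower than IgM cells (log2 change -1.02 ± 0.19, limma adjusted p = 0.0192). This call was lost in 6 of 17 alternatives, where adjusted p reached 0.306, among them each fit without an array of clone 18 or of IgM cells. Clone 41 differed from IgM cells by -0.80 on the log2 scale (1.74-fold, limma adjusted p = 0.0487), short of 2-fold and so not called. IgM cells differed from untransfected cells by 0.59, which was not called either.

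The gamma constant genes include the chain A20 makes itself. Both gamma 2a probes were at or near saturation in every line, BC019489 on 4 arrays and AK007918 on 7, with log2 signals of 6.66 to 7.24. Whether these probes, designed on C57BL/6, match the allele that A20 carries was not tested. The probe named Ighg2c, the C57BL/6 counterpart of gamma 2a, ran from 3.1 to 3.63 log2 signal with no difference called. ENSMUST00000103418, described as a gamma polypeptide and lying where the RefSeq table has Ighg2b, ran from -2.99 to -1.44, also with no call.

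ENSMUST00000103423 was the constant probe with the clearest separation of the IgE clones. It read 4.19 and 4.14 log2 signal in clone 18, 3.55 and 3.70 in clone 41, 1.56 and 1.93 in IgM cells, and 1.60 and 2.52 in untransfected cells. All 4 IgE arrays were above all 4 control arrays. The IgE lines were 3.98-fold higher than the control lines (log2 change 1.99 ± 0.22, SE, limma adjusted p = 0.00178), and the change stayed between 1.76 and 2.22 under 19 alternatives, all past the threshold. Clone 18 was 4.3-fold higher than untransfected cells and 5.36-fold higher than IgM cells (limma adjusted p = 0.01 and 0.00473). Clone 41 was 2.95-fold higher than untransfected cells and 3.68-fold higher than IgM cells (limma adjusted p = 0.0346 and 0.0149), but its call against untransfected cells was lost in 8 of 17 alternatives.

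The Ighg1 probes gave different profiles. The first had processed signals of 20 and 15.9 units in clone 18, 7.34 on the kept array of clone 41, 4260 and 4560 in IgM cells, and 69.5 and 10.9 in untransfected cells. It was well above background in IgM cells and on 1 untransfected array, among the spots kept, and so entered the test through IgM cells alone. Clone 18 was at least 176-fold lower than IgM cells (limma adjusted p = 0.00355). A bound of this kind sets the mean of the brighter line against the dimmer line's own signal or the lowest signal of any probe well above background on each array, whichever is higher. IgM cells were 117-fold higher than untransfected cells with the dim untransfected array set at that lowest signal (limma adjusted p = 0.012). The spot of the second clone 41 array had been left out as an outlier with a signal of 3390 units, and with such spots kept neither difference was called (adjusted p = 0.121 for clone 18 against IgM cells and 0.263 for IgM against untransfected cells). The second Ighg1 probe ran from 3.54 to 4.73 log2 signal over all arrays with no difference called.

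The delta chain probe AK134885 was higher over both IgE clones than over both control lines. It read -0.42 and -0.63 log2 signal in clone 18, -0.84 and -0.54 in clone 41, -1.98 and -1.63 in IgM cells, and -2.42 and -1.12 in untransfected cells. The IgE and control arrays did not overlap, as was the case for 3 of the 11 constant probes and for 24% of all probes tested, of which 8.99% were called. The IgE lines were 2.26-fold higher (log2 change 1.18 ± 0.29, SE, limma adjusted p = 0.0368), but 10 of 19 alternatives lost the call, with adjusted p up to 0.126. No clone was called against a single control line. NAP115053-1, between the ENSMUST00000103423 and delta probes, ran from -0.29 to 0.79 log2 signal without a call, and ENSMUST00000109715 and NP064466, both beside the delta probe, were too dim to test.

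Ighv2 is a family of V segments at the end of the variable region nearest the constant genes, here between 114826478 and 115117366. Of its 8 probes, 7 were tested, each of them through transfected lines and none through untransfected cells. The counts below, and the folds and p-values against untransfected cells, therefore describe probes already known to be brighter in a transfectant. All 7 differed over the 4 lines. All 7 were higher in clone 18 than in untransfected cells, 6 in clone 41 and all 7 in IgM cells. No untransfected array had more than 3 of the 7 well above background, and the second had none. Ighv2-7, the probe not tested, was well above background on 2 arrays, 1 of clone 41 and 1 of IgM cells.

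The 3 brightest Ighv2 probes gave almost the same profile. Ighv2-9 read 2.98 and 2.77 log2 signal in clone 18, 1.15 and 1.76 in clone 41, 2.69 and 2.46 in IgM cells, and -3.20 and -7.03 in untransfected cells. Ighv2-3 read 2.67 and 2.79 in clone 18, 0.88 and 1.66 in clone 41, 2.79 and 2.46 in IgM cells, and -3.04 and -6.78 in untransfected cells. Every transfectant array was above both untransfected arrays, of which the first was well above background and the second was not. With the dim array set at the lowest signal well above background, Ighv2-9 was 114-fold higher in clone 18, 42.5-fold in clone 41 and 92.5-fold in IgM cells than in untransfected cells (limma adjusted p = 0.00669, 0.0175 and 0.02 in the fit of measured values). The second Ighv2-2 probe was 90.3-fold higher in clone 18, 34.6-fold in clone 41 and 81.1-fold in IgM cells on the same terms (limma adjusted p = 0.0074, 0.0197 and 0.0206). With either clone 18 array left out, the calls of Ighv2-9 were lost in all 3 comparisons, with adjusted p up to 0.0976 over all alternatives.

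The dimmer Ighv2 probes were below background in untransfected cells on both arrays. The first Ighv2-2 probe read -0.81 and -1.11 log2 signal in clone 18, -2.68 and -1.71 in clone 41, -1.32 and -1.59 in IgM cells, and -6.71 and -6.86 in untransfected cells. It was at least 12.7-fold higher in clone 18, 5.42-fold in clone 41 and 9.04-fold in IgM cells than in untransfected cells (limma adjusted p = 0.000179, 0.000587 and 0.00102). It kept these calls under all 16 alternatives, but the filter on all 8 arrays left it out and so could not test it. The Ighv2 probes entered the test through transfected lines, so these values are a description. Ighv2-6 was at least 9.56-fold higher in clone 18, 3.57-fold in clone 41 and 8.95-fold in IgM cells (limma adjusted p = 7.68e-05, 0.000301 and 0.00037). Ighv2-5 was at least 4.07-fold higher in clone 18 and 2.27-fold in IgM cells. Ighv2-9-1 was at least 1.69-fold higher in clone 18 and 1.89-fold in IgM cells. Both bounds of Ighv2-9-1 are short of 2-fold, because calls were made on the values as read, including those below background.

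The IgE clones also differed from each other in the size of the Ighv2 signal, though not past the threshold. All 7 probes were lower in clone 41 than in clone 18, by 1.23 to 1.62 on the log2 scale as read, without overlap of the arrays. With dim arrays set at the lowest signal well above background, the differences ran from -1.46 to -0.59. Ighv2-9-1 was not well above background on either clone 41 array. None was called (adjusted p 0.116 to 1), and 38.2% of all probes tested did not overlap between the clones, while 0.257% were called. No member was called between the clones, and 6 had an unadjusted p under 0.05, among them 4 Ighv2 probes. Against IgM cells, clone 41 was called lower at 1 Ighv2 probe, Ighv2-6 (2.5-fold, limma adjusted p = 0.0183), and clone 18 at none, with differences of -0.16 to 0.84.

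Igh-VJ558 followed the Ighv2 pattern from a place among the Ighv1 segments, at 116610609. It read 1.78 and 1.86 log2 signal in clone 18, 0.01 and 0.87 in clone 41, 2.44 and 2.68 in IgM cells, and -3.1 and -6.87 in untransfected cells. With the dim untransfected array set as above, it was 52.7-fold higher in clone 18, 20.3-fold in clone 41 and 88-fold in IgM cells than in untransfected cells (limma adjusted p = 0.0124, 0.0329 and 0.0213). The clone 41 call was lost in 7 of 16 alternatives, and those of clone 18 and of IgM cells in 3 and 5. This probe too entered the test through transfected lines and not through untransfected cells, so these values are a description.

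Ighv1 is the largest family of mouse V segments, and its probes here ran from 115707350 to 117238485. Of 39 probes 23 were tested, and 22 of them differed over the 4 lines. IgM cells exceeded untransfected cells at 21, and both clones were lower than IgM cells at 22. Only 1 of the 23, Ighv1-9, was called in a clone against untransfected cells, in clone 41 (at least 1.83-fold higher, limma adjusted p = 0.0297). That bound is short of 2-fold, because the call was made on the values as read, including those below background. Of the 23, 14 entered the test through transfected lines and not through untransfected cells, 7 of them through IgM cells alone. The counts over the 23 therefore describe probes partly picked for their signal in IgM cells or another transfectant. The 9 probes well above background on all 8 arrays had a median log2 change of -5.16 for clone 18 and -4.76 for clone 41 against IgM cells, and of 5.86 for IgM against untransfected cells. Against untransfected cells, the same 9 had medians of 0.68 in clone 18 and 1.11 in clone 41, with ranges of 0 to 1.57 and 0 to 1.82, and none was called. The median change over all probes tested was 0.08, 0.05 and 0 in the clones against IgM cells and in IgM against untransfected cells.

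Ighv1-7 shows the pattern on arrays all well above background. It read -2.40 and -2.48 log2 signal in clone 18, -2.78 and -1.24 in clone 41, 2.23 and 3.26 in IgM cells, and -3.21 and -3.02 in untransfected cells. The IgM arrays stood alone, and no other array came within 3 log2 units of them. Clone 18 was 36.4-fold and clone 41 27-fold lower than IgM cells, and IgM cells were 58.2-fold higher than untransfected cells (limma adjusted p = 0.00185, 0.00322 and 0.00357). All 3 calls held under 17 alternatives, with adjusted p up to 0.0389.

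Ighv1-77 and Ighv1-52 gave comparable values. Ighv1-77 read -2.42 and -2.36 log2 signal in clone 18, -3.11 and -1.17 in clone 41, 2.36 and 3.48 in IgM cells, and -3.54 and -4.38 in untransfected cells. IgM cells were 118-fold higher than untransfected cells at Ighv1-77 and 85.4-fold at Ighv1-52 (limma adjusted p = 0.00494 and 0.00261). Ighv1-64 was 39.6-fold lower in clone 18 and 29.6-fold lower in clone 41 than in IgM cells (limma adjusted p = 0.00774 and 0.0125).

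Ighv1-62-3 and Ighv1-54 were among the Ighv1 probes that departed from the family. Ighv1-62-3 read -0.34 and -0.06 log2 signal in clone 18, -0.66 and 0.25 in clone 41, 1.71 and 2.68 in IgM cells, and -0.71 and 0.31 in untransfected cells. It was 5.26-fold lower in clone 18 and 5.27-fold lower in clone 41 than in IgM cells (limma adjusted p = 0.0259 and 0.0299), with a log2 change of 2.40 in IgM against untransfected cells that was not called. Ighv1-54 read -6.95 and -2.87 in clone 18, -6.81 and -1.55 in clone 41, -2.43 and -0.59 in IgM cells, and -6.85 and -7.01 in untransfected cells. Its replicates were far apart in both clones, and it was called in no comparison.

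Probes of 3 other kinds were also high in IgM cells. Ighv14-3 read -1.59 and -1.97 log2 signal in clone 18, -1.81 and -0.85 in clone 41, 2.71 and 3.83 in IgM cells, and -2.49 and -2.10 in untransfected cells. It was 33.1-fold lower in clone 18 and 24.2-fold lower in clone 41 than in IgM cells, which were 47.2-fold above untransfected cells (limma adjusted p = 0.00111, 0.00187 and 0.00245). Ighv9-3 was well above background in IgM cells alone, at -2.08 and -0.40, and was at least 9.98-fold lower in clone 18 and 9.38-fold lower in clone 41 (limma adjusted p = 0.00229 and 0.00373). It entered the test only through IgM cells, so these values are a description. AY171990, a V region cDNA, was 29.3-fold and 19.5-fold lower in clones 18 and 41 (limma adjusted p = 0.00132 and 0.00278).

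The replicates carried an order of their own in these probes. At all 23 Ighv1 probes the second clone 41 array was above the first, by 0.28 to 5.26 log2 units with a median of 1.82. The second IgM array was likewise above the first at all 23, by 0.66 to 1.85. In clone 18 the second array was higher at 16 of 23 and in untransfected cells at 7 of 23. The replicate number is also the row of the slide, so the 2 cannot be told apart.

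Pooling the 2 clones and the 2 control lines mixed these patterns. Between IgE and control lines 8 members were called higher and 18 lower, 26 of 57, against 3.63% and 5.35% of all probes tested. With the first or second clone 18 array left out 8 or 9 members were called, without the first clone 41 array 15 and without the second IgM array 14. All 6 variable probes called higher were Ighv2 probes, and each was also higher in both clones and in IgM cells than in untransfected cells, and in neither clone higher than in IgM cells. Of the 17 variable probes called lower, 17 were lower in clone 18 than in IgM cells and 16 in clone 41, but 1 was lower in clone 18 than in untransfected cells and none in clone 41. With the arrays taken as 2 groups and the line left out of the fit, 4 members were called, or 3 where the line entered as a random block.

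The variable probe lower than in untransfected cells was TC1586156, at 117209085, which the array describes as a fragment of tumour necrosis factor and not as a V segment. It was singled out after its values were seen. It read -0.50 and -0.52 log2 signal in clone 18, 0.28 and 0.49 in clone 41, 2.01 and 2.38 in IgM cells, and 1.19 and 1.88 in untransfected cells, with no overlap between IgE and control arrays. The IgE lines were 3.81-fold lower (log2 change -1.93 ± 0.19, SE, limma adjusted p = 0.0011).

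Of the 10 tested variable probes not matched to a V family, 7 were called in no comparison. Adam6b, a gene for a sperm surface protein that lies inside the locus, ran from -2.30 to -1.52 log2 signal over all arrays. NAP093099-001, at 116784353, ran from 6.65 to 7.05, and A_55_P1960083, at 116829288, was saturated on all 8 arrays. A probe of a non-coding transcript at 116855422 ran from -3.78 to -2.71. The line means of these 4 spanned 0.20 to 0.41 log2 units. In the 1000000 bases on either side of the locus 46 of 72 probes were tested. Beyond the variable end 7 of 18 were lower in clone 18 and 6 of 18 in clone 41 than in IgM cells, and beyond the constant end 1 of 28 in each clone, against 5.34% and 4.52% of all probes.

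Genes known to work with the heavy chain were counted in the same fit. Of 11 tested partners of the heavy chain, none was called between IgE and control lines, against 8.99% of all probes. Cd79a, which carries the receptor's signal with Cd79b, was lower by a log2 change of -0.84 ± 0.14 in the IgE lines (limma adjusted p = 0.00969), short of 2-fold, and Cd79b differed by 0.27 without a call. Clone 18 alone was called lower at Cd79a, by a log2 change of -1.13 against untransfected and -1.17 against IgM cells (limma adjusted p = 0.019 and 0.0145). The J chain probe (Jchain) and that of Pou2af1, a coactivator of immunoglobulin promoters, were saturated on all 8 arrays. Of 22 transcription factors of heavy chain enhancers and promoters, 3 fell and none rose: Irf4, Ebf1 and Foxo1, with log2 changes of -2.79 ± 0.30, -2.26 ± 0.30 and -1.14 ± 0.21 (SE, limma adjusted p = 0.00168, 0.00391 and 0.0131), where 5.35% of all probes were called lower. Irf4 acts in plasma cell differentiation and class switching, and Ebf1 and Foxo1 in B cell development. The median over the 22 was 0.01, against 0.06 over all probes tested.

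Of 14 genes that process secreted against membrane heavy chain mRNA, 1 fell, against 5.35% of all probes called lower. Hnrnpll, a splicing regulator, read -3.57 and -2.97 log2 signal in clone 18, -3.13 and -2.21 in clone 41, 0.76 and 0.43 in IgM cells, and 1.83 and 2.51 in untransfected cells. All IgE arrays were below all control arrays (log2 change -4.35 ± 0.28, SE, limma adjusted p = 0.000169). Ell2, an elongation factor that favours the secreted form, changed by -0.96 ± 0.23, short of 2-fold (limma adjusted p = 0.0329). Of 25 genes of V(D)J and class switch recombination, 1 fell, the DNA ligase gene Lig4 (-1.01 ± 0.26, limma adjusted p = 0.0447), which is below the share of all probes. Clone 18 was lower than IgM cells at 3 of the 25 (Lig4, Nhej1 and Rag2), against 5.34% of all probes, and clone 41 at 1 (Nhej1), and clone 41 was higher than untransfected cells at 1 (Exo1). The part of these changes in the values of the locus was not tested either.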

How the data were processed

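Each of the 8 RNA samples was labelled with Cy3 and put on 1 Agilent mouse array (design 028005). The authors' slide, per the file headers, was read with Feature Extraction 10.7.3.1, which subtracted background from the spot intensity and detrended it, and the probes were placed on mm9. The deposited files also hold other flags per spot (well above background, saturated, outlier). The authors also deposited a log2 table of all arrays (column medians 5.9 to 5.92), whose probe ranks equalled those of the median pixel intensity (Spearman 1). Its normalization is not given in the sources used here. All arrays lay on 1 slide with 1 scan. Lines filled slide columns and replicate numbers slide rows, so column and line cannot be told apart.

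Processed intensities were taken as log2 minus each array's 75th percentile. Control spots and outlier spots were left out, saturated spots were kept, and spots of a probe were averaged. The test took the 29140 of 55681 probes that both arrays of some line read well above background. The fit, with a mean for each line, used limma 3.58.1 in R 4.3.3 (4 residual and 2.74 prior degrees of freedom), two-sided, with Benjamini-Hochberg adjustment. The script was tested on simulated data. Sequences were compared in Python. Groups and replicates came from the titles. The number of arrays limits the precision.

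The members and gene lists were chosen with earlier results of these data known. Text names all constant probes, up to 24 called variable probes by the range of line means, saturated probes, the 4 with the smallest range, called members of each list (up to 4) and 7 fixed genes, and gives examples from these. Some genes that this rule names are not reported here. Of 149 members, 92 were matched to a RefSeq name of GRCm38.p6, 85 of them V segments.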

Additional observations from a re-analysis of the deposited data

Results flagged for a closer look

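Within the 4 IgE arrays or the 4 control arrays, 81 groups of values were checked for a single array far from the rest, and chance alone sets apart about 1 group in 20. At AK007918, a gamma 2a probe, the first clone 41 array read 6.83 log2 signal while the other 3 IgE arrays read 7.11 to 7.12. This probe was saturated on 7 of the 8 arrays, where its values are bounds, so the gap is not a measured one. At Ighv9-3 the second clone 41 array read -5.55, against -6.57 to -6.40 on the other IgE arrays. At Ighv1-39 the second clone 41 array read -4.76, against -6.77 to -6.59. Neither probe was well above background on any IgE array. The first Ighg1 probe had a spot that was not used, on the second clone 41 array, at 3.03 log2 signal, above the untransfected arrays at -5.56 to -3.05.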

How the results depend on the processing

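The counts of called members moved with the filter, with the arrays left out and, for the clones against untransfected cells, with the scaling. With probes well above background on all 8 arrays alone, 30 members were tested, and the counts were 13 over the 4 lines, 13 for IgE against control lines, 2 for clone 18 and 2 for clone 41 against untransfected cells, 13 for clone 18 and 12 for clone 41 against IgM cells, and 9 for IgM against untransfected cells. With no filter they were 10 for IgE against control lines, 3 for clone 41 against untransfected cells, 19 for clone 41 against IgM cells and 19 for IgM against untransfected cells. Scaling to the median moved the median of all probes to 0.24 for IgE against control lines and to -0.41 for IgM against untransfected cells. It gave 20 calls for clone 18 and 22 for clone 41 against untransfected cells, and 1 between the clones. As 2 groups without the line 4 members were called for IgE against control lines, and 3 where the line entered as a random block. Leaving out 1 array gave 28 to 40 calls over the 4 lines, 8 to 25 for IgE against control lines, 3 to 13 for clone 18 and 3 to 13 for clone 41 against untransfected cells, 19 to 31 for clone 18 and 18 to 35 for clone 41 against IgM cells, 25 to 33 for IgM against untransfected cells and 0 between the clones. Beyond the array counts and probe counts these settings change by construction, the cause was not tested. Over the 41 named probes no called change reversed under any of these alternatives.

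With the replicate number as a block, 36 members were called over the 4 lines and 27 for IgE against control lines, 11 and 10 for clones 18 and 41 against untransfected cells, 29 and 29 against IgM cells, 33 for IgM against untransfected cells and 0 between the clones. Same-numbered arrays of 2 lines correlated by -0.07 to 0.35 in their deviations over 24838 probes, so the numbers were not taken to pair the samples.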

Other observations

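The 24 variable probes higher in IgM than in untransfected cells and lower in both clones were set against the IgM mean array by array, over the probes well above background on each. These sets were formed after the values were seen, and the values are a description. The second clone 41 array lay 2.68 to 4.12 log2 units below the IgM mean over 21 such probes, with a median of -3.85. The medians were -5.58 on the first clone 41 array (16 probes), -5.29 and -5.15 on the clone 18 arrays (18 probes each) and -5.99 and -5.77 on the untransfected arrays (14 and 11 probes). At the 4 probes Ighv2-2 (the second), Ighv2-3, Ighv2-9 and Igh-VJ558, the first untransfected array lay between 5.49 and 5.78 below the IgM mean, with log2 signals of -3.20 to -3.01, while the second was not well above background at any of them. The first Ighg1 probe read -3.05 on the same untransfected array.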
